A study of Mus musculus with 4 samples.

Results

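The high mobility group (HMG) proteins are small, abundant non-histone proteins of chromatin. The 9 HMG genes examined here, Hmga1, Hmga2, Hmgb1, Hmgb2, Hmgb3, Hmgn1, Hmgn2, Hmgn3 and Hmgn5, were taken by symbol from a list, and all 9 were found among the 32230 rows of the deposited expression table. The list and the comparison lists were drawn up with earlier results of these data known. HMGA proteins bind AT-rich DNA in the minor groove through AT-hook motifs, HMGB proteins bend DNA with their HMG boxes, and HMGN proteins bind nucleosomes and compete with linker histones for chromatin. HMGA proteins are known from embryonic and proliferating cells, and HMGB1 also acts outside the cell as a signal of tissue damage.

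The cells were 4F2A mouse embryonic fibroblasts, taken from male embryos homozygous for 4F2A, a transgene known to carry the reprogramming factors Oct4, Sox2, Klf4 and Myc under doxycycline control. Treated cells received CX-5461, known as an inhibitor of RNA polymerase I, and control cells received the solvent DMSO. Either agent was present for 1 hour at the start of reprogramming. Both groups were grown with LIF and 2 µg/mL doxycycline for 48 hours, and RNA was taken on day 2. Each group had 2 libraries, numbered 2 and 3 in the labels. Nothing in the labels says that the 2 parallel replicates were separate cultures, so the p-values speak of the spread among these libraries alone, and that spread may be technical.

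Levels are in TPM, a unit of transcript abundance that corrects for gene length and library total, so levels of different genes can be set side by side. TPM carries no depth of its own. Reads recovered from TPM, summed over the rows matched to the gene annotation, came to about 35600000 and 35300000 in CX-5461 libraries. In DMSO libraries they came to about 35500000 and 37600000. Each mate of a read pair counts as 1 read, and reads outside the matched rows are not in these sums. The mitochondrially encoded genes held 9.20% and 9.24% of TPM in CX-5461 libraries, and 9.96% and 15.3% in DMSO libraries, so DMSO replicate 3 stood apart in this measure. All 12 fibroblast markers were expressed, with summed levels of 10556 and 10029 TPM in CX-5461 libraries, against 13810 and 11133 TPM in DMSO libraries. Of 8 pluripotent cell markers 1 reached a mean of 1 TPM, and their summed level was 4.14 TPM or less in every library. Macrophage markers summed to 884 and 996 TPM in CX-5461 libraries and to 615.3 and 614.6 TPM in DMSO libraries, most of it Lyz2. Of these 7 markers 6 reached a mean of 1 TPM, and Ptprc, the common leukocyte antigen, was at 1.27 TPM or less. Cd68 was at 37.2 and 52.6 TPM in CX-5461 libraries, against 26.7 and 51.5 TPM in DMSO libraries. In the same order, C1qa was at 30.1 and 42.0 against 32.0 and 31.1 TPM, and Csf1r at 11.5 and 13.1 against 11.7 and 9.43 TPM. Cd14 was at 18.8 and 22.9 against 11.2 and 9.19 TPM, and Adgre1 at 10.4 and 8.98 against 4.48 and 4.99 TPM. The part of other cells in the levels below was not tested.

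HMG transcripts were lower on day 2 after the brief CX-5461 exposure for 8 of the 9 genes, against 8.21% of all genes tested, with the largest differences at Hmgb2, Hmgb3 and Hmgn2. Hmgb2 was 15.7-fold lower, Hmgb3 4.5-fold lower and Hmgn2 3.73-fold lower in CX-5461 cells. Hmga1, Hmga2, Hmgb1, Hmgn3 and Hmgn5 fell to between 44.2% and 69.0% of their DMSO means, and Hmgn1 alone was not lower. In the limma fit over all 14621 genes whose mean reached 1 TPM, those 8 HMG genes passed as lower at an adjusted p under 0.05, and 0 passed as higher, against 11.6% of all genes tested. The same 8 genes lay below both DMSO libraries in both CX-5461 libraries, an order shown by 26.3% of all genes tested, and Hmgn1 lay above both, as 38.2% did. The median difference of the 9 genes was -0.96 (CX-5461 minus DMSO, in log2 of TPM + 1), beside a median of 0.07 over all genes tested. In bulk RNA, fewer cells that express a gene and less RNA of it per cell cannot be told apart. With each library left out in turn, the differences of the 8 lowered genes stayed negative. They ran from -3.75 to -3.38 for Hmgb2 and from -0.67 to -0.38 for Hmga2. Hmga2 was at -0.38 without DMSO replicate 3, the library with the highest mitochondrial share. Fewer of all genes tested passed as lower in each of these fits, and fewer HMG genes passed in some of them. After rescaling without the mitochondrially encoded and the 20 highest genes, 1572 genes were higher and 1766 lower, against 1694 and 1201 with TPM as deposited, and 8 of the 9 HMG genes again passed as lower. With limma-voom on the recovered reads, again 8 of the 9 passed as lower, against 15.4% of genes in that fit, and 0 as higher, against 16.2%.

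**Figure D1:**
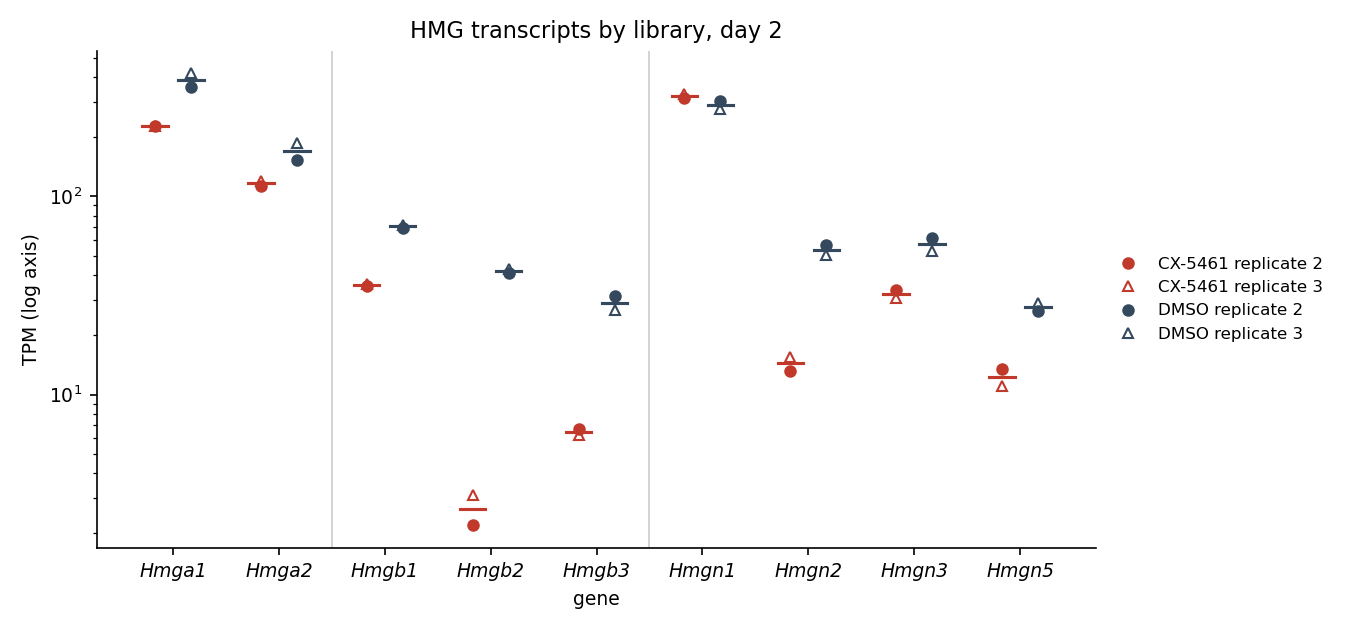
Level of each HMG gene in TPM on a log axis, with CX-5461 libraries in red left of DMSO libraries in grey-blue; circles are replicate 2, triangles replicate 3 and bars the mean of 2 libraries. Hmgb2 shows the widest gap, at 2.19 and 3.13 TPM in CX-5461 libraries against 40.8 and 42.9 TPM in DMSO libraries, and Hmgn1 is the one gene whose CX-5461 libraries lie above the DMSO libraries.

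The promoters of the 3 most lowered genes and of Hmgn1 are shown to set the letters around their transcript starts side by side. Each window runs from 250 bases before to 50 bases after the start given by RefSeq on GRCm38.p6, read 5′ to 3′ on the gene's strand. Capitals mark matches, on either strand, to the CHR element (TTTGAA) and to the NF-Y box (CCAAT), short elements known from promoters of genes expressed in the second part of the cell cycle. Hmgb2 lies at chr8:57511593-57511892 on the plus strand, Hmgb3 at chrX:71555667-71555966 on the plus strand, Hmgn2 at chr4:133967942-133968241 on the minus strand and Hmgn1 at chr16:96127676-96127975 on the minus strand.
Hmgb2: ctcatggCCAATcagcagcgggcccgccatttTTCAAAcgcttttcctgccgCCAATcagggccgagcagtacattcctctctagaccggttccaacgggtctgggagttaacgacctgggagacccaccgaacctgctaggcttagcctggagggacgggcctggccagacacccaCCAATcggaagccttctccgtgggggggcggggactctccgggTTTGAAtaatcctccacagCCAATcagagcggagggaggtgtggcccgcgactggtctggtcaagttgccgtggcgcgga
Hmgb3: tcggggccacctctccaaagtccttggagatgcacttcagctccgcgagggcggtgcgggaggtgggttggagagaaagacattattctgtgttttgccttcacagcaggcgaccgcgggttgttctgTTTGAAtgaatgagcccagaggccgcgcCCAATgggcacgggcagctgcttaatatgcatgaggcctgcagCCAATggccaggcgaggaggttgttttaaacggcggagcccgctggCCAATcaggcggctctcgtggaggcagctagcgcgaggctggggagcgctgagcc
Hmgn2: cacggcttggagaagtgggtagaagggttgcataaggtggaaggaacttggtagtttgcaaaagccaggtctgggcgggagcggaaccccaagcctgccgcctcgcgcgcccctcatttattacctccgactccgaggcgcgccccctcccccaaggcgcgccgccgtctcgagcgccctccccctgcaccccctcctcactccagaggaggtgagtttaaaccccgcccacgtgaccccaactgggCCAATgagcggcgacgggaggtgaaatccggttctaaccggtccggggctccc
Hmgn1: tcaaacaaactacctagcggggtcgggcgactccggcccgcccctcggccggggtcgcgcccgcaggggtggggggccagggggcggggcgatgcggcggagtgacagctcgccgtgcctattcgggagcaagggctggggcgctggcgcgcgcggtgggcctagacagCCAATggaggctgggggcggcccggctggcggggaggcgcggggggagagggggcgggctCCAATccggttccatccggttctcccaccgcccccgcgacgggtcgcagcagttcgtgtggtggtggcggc

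The Hmgb2 window held 2 CHR matches, one of them at position -30 from the start, and 4 NF-Y boxes. The Hmgb3 window held 1 CHR match, at position -122, and 3 NF-Y boxes. Hmgn2 had 1 NF-Y box, at position -3, and no CHR match. Hmgn1, which did not fall, had 2 NF-Y boxes and likewise no CHR match. Of the other HMG genes with a window, Hmgn5 had 2 NF-Y boxes, 1 of the 2 Hmgb1 windows had 3, and neither Hmga1 window had a match. Hmga2 had 1 match to the E2F letters searched, which were TTCCCGC, its variant TTGGCGC, the form TTCGCGC and lastly TTGCCGC. No 2 matches overlapped. Over all 32851 windows of the same length, 17.9% held a CHR match, 37.4% an NF-Y box, 9.57% an E2F match and 6.95% both a CHR match and an NF-Y box. Positions count from RefSeq starts, which can differ from the gene spans given below, taken from the GENCODE annotation. The Hmgn2 window lies inside its GENCODE span, and the Hmgb2 window ends before its GENCODE span begins. A match describes these letters and does not show a bound site.

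**Figure D2:**
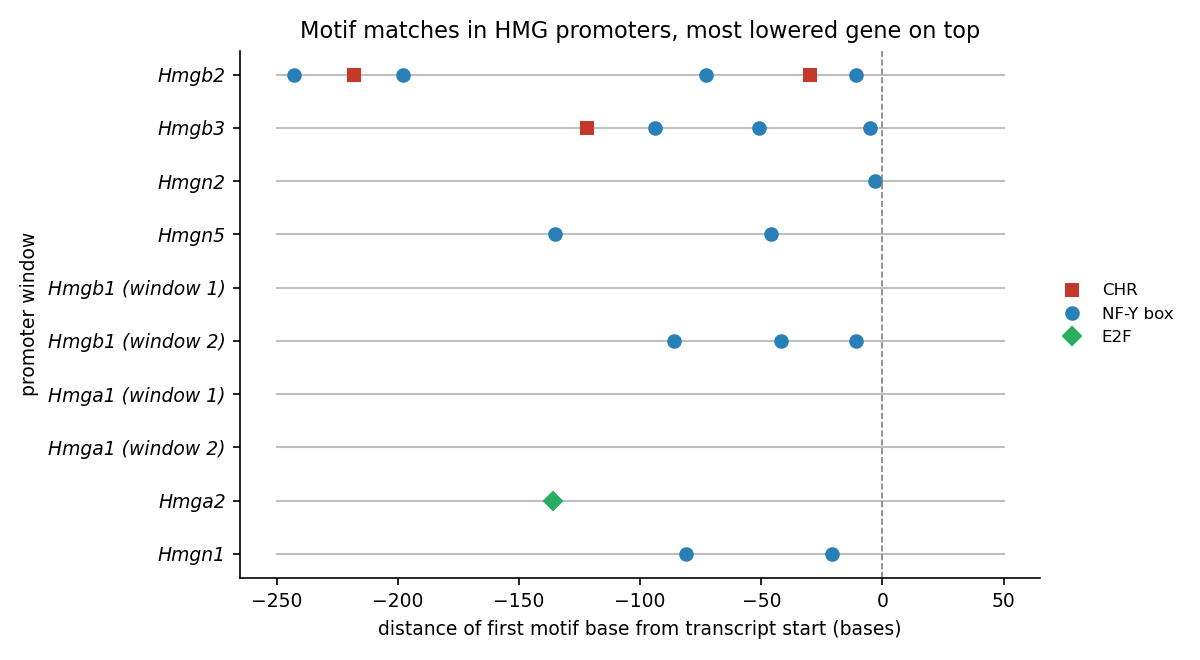
Positions of CHR, NF-Y box and E2F matches in the promoter windows of 8 HMG genes, as the distance in bases of the first base of a match from the transcript start, with the gene of the most negative difference on top and each grey line a 300-base window. CHR matches, drawn as red squares, appear for Hmgb2 and Hmgb3, and the windows of Hmga1 are empty.

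Among the HMGB genes, Hmgb2 encodes an HMG-box protein known from dividing and early developing cells. Its gene spans chr8:57511907-57515999 on the plus strand. Hmgb2 was measured at 2.19 and 3.13 TPM in CX-5461 libraries, against 40.8 and 42.9 TPM in DMSO libraries. The groups were far apart, and the CX-5461 mean was 6.35% of the DMSO mean. Its difference was -3.56 ± 0.16 (SE, n = 2 each) on the log2(TPM + 1) scale (limma, adjusted p = 0.000339). Of the 14621 genes tested, 30 had a lower difference. At this level the CX-5461 values rest on few reads, about 67.5 and 94.7 recovered reads against 1260 and 1491 in DMSO libraries. Each mate of a read pair counts as 1 read in these numbers. The added 1 TPM shrinks the difference of so low a gene. Hmgb2 shares 24.1% of its transcript with 5 annotated copies, at 95% identity or more over at least 150 bases. Of these copies 0 had rows, so their reads could be counted to Hmgb2 or left out.

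Hmgb3, whose protein is known from stem and progenitor cells of the blood, spans chrX:71555918-71560676 on the plus strand. It stood at 6.67 and 6.24 TPM in CX-5461 libraries, against 31.5 and 26.6 TPM in DMSO libraries. Hmgb3 shares 34.6% of its transcript with 1 annotated copy, to which no row was matched. The Hmgb3 groups did not overlap, and the 2 CX-5461 libraries lay closer together than the 2 DMSO libraries. The difference was -2.01 ± 0.13 (SE; limma, adjusted p = 0.000809).

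Hmgb1, the most widely expressed HMGB gene, spans chr5:149046702-149184489 on the minus strand. It was at 35.4 and 36.2 TPM in CX-5461 libraries and at 69.0 and 71.9 TPM in DMSO libraries. Both CX-5461 libraries lay near 50.8% of the DMSO mean, and the spread within each group was small. The difference was -0.96 ± 0.0846 (SE; limma, adjusted p = 0.00199). Hmgb1 shares sequence with 40 annotated copies at 95% identity or more over at least 150 bases, of which 12 had rows, and its reads may be split among them. Those rows summed to 8.65 and 7.93 TPM in CX-5461 libraries, against 16.1 and 11.9 TPM in DMSO libraries. With them added, the difference of Hmgb1 was -0.92 (limma, adjusted p = 0.00195). Uspl1 overlaps Hmgb1 on the other strand and was at 11.7 and 14.0 TPM in CX-5461 libraries, against 15.2 and 13.2 TPM in DMSO libraries. Whether the counting used strand is not given in the sources used here, so reads of the 2 genes cannot be told apart where they overlap.

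The proportions of the HMGB transcripts within each library can be given without regard to scaling. For every TPM of Hmgb1 there were 0.0619 and 0.0864 TPM of Hmgb2 in CX-5461 libraries, against 0.592 and 0.597 in DMSO libraries. The ratio of Hmgb3 to Hmgb1 was 0.188 and 0.172 in CX-5461 libraries, against 0.457 and 0.371 in DMSO libraries. Neither ratio overlapped between groups, and both were lower in CX-5461 libraries. Hmgb1 made up 79.98% and 79.4% of the summed HMGB level in CX-5461 libraries and 48.8% and 50.8% in DMSO libraries. With 2 libraries per group an exact two-sided permutation test of a ratio or sum cannot give a p below 0.333, so none was run on the ratios, shares and sums here. Hmgb4, a testis HMGB gene, was listed at 0 in every library.

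Among the HMGN genes, Hmgn2 encodes a nucleosome-binding protein known to loosen compact chromatin. The gene spans chr4:133964738-133968650 on the minus strand. Hmgn2 was at 13.2 and 15.5 TPM in CX-5461 libraries, against 56.6 and 50.4 TPM in DMSO libraries. The groups were well separated. Its difference was -1.83 ± 0.121 (SE; limma, adjusted p = 0.000849). Hmgn2 shares 92.3% of its transcript with 12 annotated copies, and the 2 of them that had rows were listed at 0, so reads of copies could be counted to Hmgn2 or left out. A row named Hmgn2-ps, chosen after its values were seen and not matched to the annotation used here, stood at 3.94 and 3.15 TPM in CX-5461 libraries, against 17.2 and 20.5 TPM in DMSO libraries.

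Hmgn1 spans chr16:96120618-96127729 on the minus strand and encodes the closest relative of HMGN2. It was measured at 314 and 326 TPM in CX-5461 libraries, against 303 and 275 TPM in DMSO libraries. Both CX-5461 libraries lay above both DMSO libraries, by a small margin. The difference of 0.15 ± 0.0872 (SE) did not pass (limma, unadjusted p = 0.137, adjusted p = 0.272), and its 95% interval ran from -0.07 to 0.37. A fall as large as that of any other HMG gene lies outside this interval. Hmgn1 shares 13.4% of its transcript with 4 annotated copies, of which 0 had rows. The ratio of Hmgn1 to Hmgn2 was 23.8 and 21.0 in CX-5461 libraries, against 5.35 and 5.45 in DMSO libraries.

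The differences of Hmgn3 and Hmgn5 were smaller than that of Hmgn2. Hmgn3, known from endocrine cells and the eye, spans chr9:83109948-83146685 on the minus strand and was at 33.7 and 30.6 TPM in CX-5461 libraries, against 61.7 and 53.1 TPM in DMSO libraries. Hmgn5, an HMGN protein with a long acidic tail that counteracts linker histones, spans chrX:109004534-109013404 on the minus strand and was at 13.4 and 11.1 TPM in CX-5461 libraries, against 26.5 and 28.8 TPM in DMSO libraries. Neither gene overlapped between groups. The difference of Hmgn3 was -0.81 ± 0.112 (SE; limma, adjusted p = 0.00726), and that of Hmgn5 was -1.12 ± 0.128 (SE; limma, adjusted p = 0.00423). Hmgn3 no longer passed without CX-5461 replicate 2 (limma, adjusted p = 0.0575) or without CX-5461 replicate 3 (limma, adjusted p = 0.0915), while Hmgn5 passed with any library left out. The ratio of Hmgn3 to Hmgn2 was 2.56 and 1.97 in CX-5461 libraries, against 1.09 and 1.05 in DMSO libraries. Hmgn5 shares 26.2% of its transcript with 1 annotated copy, Gm11914. The Gm11914 row was at 2.50 and 0.978 TPM in CX-5461 libraries, against 8.15 and 5.37 TPM in DMSO libraries. With that row added, the difference of Hmgn5 was -1.25 (limma, adjusted p = 0.00431).

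Of the HMGA genes, Hmga1 was the most abundant HMG gene in DMSO cells, with 97.6% of all genes tested at a lower DMSO level. HMGA1 is an architectural protein known to help assemble complexes of transcription factors on enhancers. The gene spans chr17:27556497-27563674 on the plus strand. Hmga1 was at 226 and 225 TPM in CX-5461 libraries, against 356 and 417 TPM in DMSO libraries. The CX-5461 libraries were nearly equal, and the groups did not overlap. The difference was -0.77 ± 0.101 (SE; limma, adjusted p = 0.00618). It did not pass without CX-5461 replicate 2 (limma, adjusted p = 0.0793) or without CX-5461 replicate 3 (limma, adjusted p = 0.0932). The Hmga1b row, a copy on chromosome 11 that shares 1538 bases with Hmga1 at 99.8% identity, was at 172 and 199 TPM in CX-5461 libraries, against 307 and 342 TPM in DMSO libraries, and reads cannot be assigned to one of the 2 genes with certainty. Their sum gave a difference of -0.79 (limma, adjusted p = 0.00542).

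Hmga2, a target of the let-7 microRNAs that is known for its expression in embryonic mesenchyme, spans chr10:120361275-120476469 on the minus strand. It stood at 113 and 119.9 TPM in CX-5461 libraries, against 152 and 186 TPM in DMSO libraries. The groups did not overlap, and DMSO replicate 2 lay closer to the CX-5461 libraries than DMSO replicate 3 did. The difference of -0.52 ± 0.118 (SE) was the smallest of those that passed (limma, adjusted p = 0.0318). It did not pass without CX-5461 replicate 2 (limma, adjusted p = 0.201), without CX-5461 replicate 3 (0.179) or without DMSO replicate 3 (0.0543). The ratio of Hmga2 to Hmga1 was 0.502 and 0.532 in CX-5461 libraries, against 0.426 and 0.446 in DMSO libraries.

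**Figure D3:**
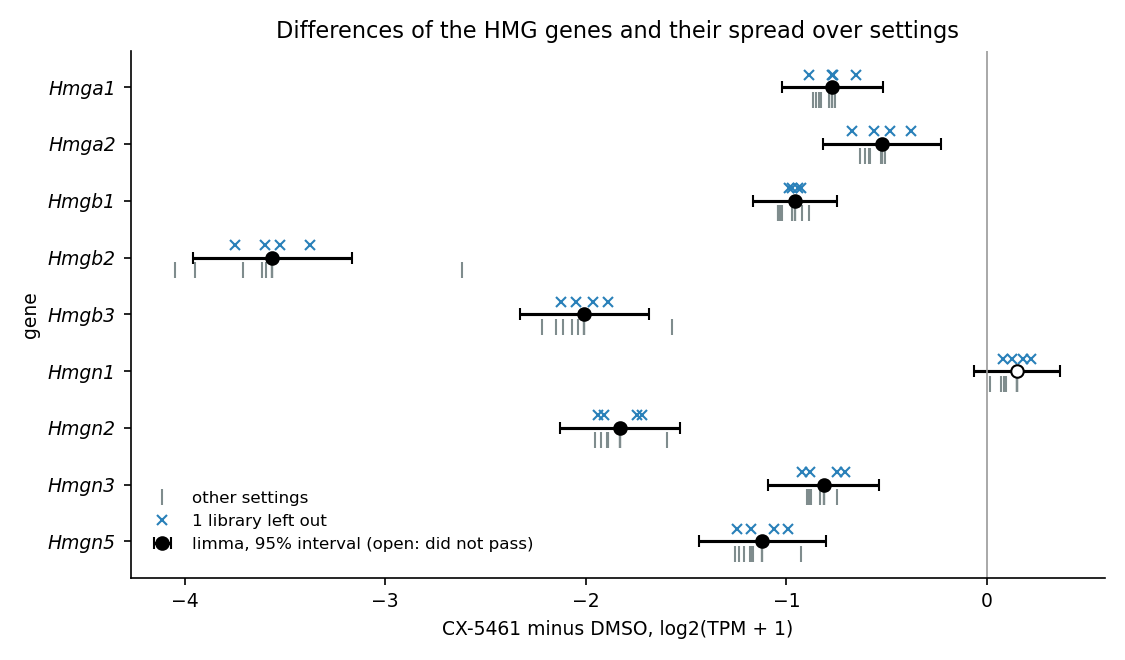
Difference of each HMG gene, CX-5461 minus DMSO in log2(TPM + 1), as black points with 95% intervals from limma (open where the gene did not pass), with blue crosses for fits with 1 library left out and grey ticks for other settings. Hmgb2, at -3.56, lies furthest to the left, and the interval of Hmgn1, from -0.07 to 0.37, includes 0.

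As a pool, the 9 genes summed to 758 and 774 TPM in CX-5461 libraries, against 1096 and 1152 TPM in DMSO libraries, so the CX-5461 pool was 68.1% of the DMSO pool. The HMGB sum was 31.8% of its DMSO mean, at 44.3 and 45.6 TPM in CX-5461 libraries against 141.3 and 141.4 TPM in DMSO libraries. The HMGA sum was 339 and 345 TPM in CX-5461 libraries, against 507 and 603 TPM in DMSO libraries. The HMGN sum came closest to its DMSO level, with 375 and 384 TPM in CX-5461 libraries against 448 and 407 TPM in DMSO libraries, a CX-5461 mean at 88.7% of the DMSO mean. Hmgn1 held 83.9% and 85.1% of it in CX-5461 libraries, against 67.7% and 67.5% in DMSO libraries. Hmgn1 made up 41.5% and 42.2% of the whole HMG pool in CX-5461 libraries, against 27.6% and 23.9% in DMSO libraries.

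The order of the levels changed as well. In CX-5461 cells it ran from Hmgn1 through Hmga1, Hmga2, Hmgb1 and Hmgn3 to Hmgn2 and Hmgn5, whose libraries overlapped, and then to Hmgb3 and Hmgb2. In DMSO cells Hmga1 was above Hmgn1, followed by Hmga2 and Hmgb1, then Hmgn3 and Hmgn2, which overlapped, then Hmgb2, and last Hmgb3 and Hmgn5, which overlapped. Hmgb2 was thus the lowest of the 9 in CX-5461 cells and above Hmgb3 and Hmgn5 in DMSO cells.

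**Figure D4:**
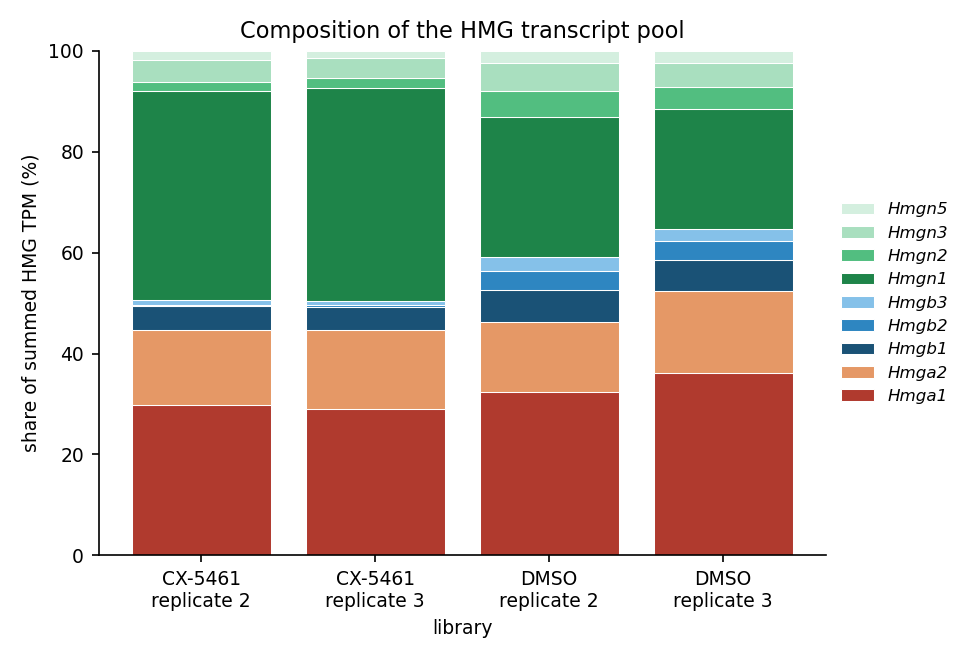
Share of each HMG gene in the summed TPM of the 9 genes, in percent, one stacked bar per library with the CX-5461 libraries left of the DMSO libraries. Hmgn1 takes 41.5% and 42.2% of the CX-5461 bars and 27.6% and 23.9% of the DMSO bars.

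Among 10844 genes whose mean reached 5 TPM, the profiles most like that of Hmgb2, the HMG gene with the largest difference, were those of Hmmr, Birc5, Knstrn and Prc1, at Euclidean distances of 0.148, 0.151, 0.157 and 0.233 between centred log2(TPM + 1) values over the 4 libraries. Hmmr was at 2.55 and 3.15 TPM in CX-5461 libraries, against 40.0 and 42.2 TPM in DMSO libraries, close to Hmgb2 in level too. For Hmga1, the HMG gene with the highest mean level over the 4 libraries, the nearest were Ranbp1, Myc, Cntrob and Pdpn, at distances of 0.0415, 0.0772, 0.0909 and 0.092. Myc, one of the factors of the 4F2A cassette, was at 216 and 217 TPM in CX-5461 libraries, against 330 and 376 TPM in DMSO libraries, and transgene and endogenous Myc reads cannot be told apart in this row.

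The other lists place the HMG genes among chromatin genes and cell states. Their counts can be set beside those of all genes tested, of which 8.21% passed as lower and 11.6% as higher. Of 20 markers of cycling cells, 20 fell, with a median difference of -3.26, and their summed level was 206 and 201 TPM in CX-5461 libraries, against 1309 and 1223 TPM in DMSO libraries. Mki67, the proliferation marker Ki-67, was at 1.59 and 1.75 TPM in CX-5461 libraries, against 84.6 and 98.0 TPM in DMSO libraries. The part of the share of dividing cells in the lower HMG levels was not tested.

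Of 29 other genes with an HMG box, 24 could be tested, with a median of -0.03. Of these 4 were lower, 2 higher and 18 did not pass, beside 8.21% lower and 11.6% higher among all genes tested. Wdhd1, a protein of the replication fork, fell by 2.22 on the log2(TPM + 1) scale (limma, adjusted p = 0.00105), and Ssrp1, a subunit of the histone chaperone FACT, fell by 0.54 (limma, adjusted p = 0.00889). Ubtf, which encodes the HMG-box factor UBF of RNA polymerase I transcription, was at 52.2 and 56.6 TPM in CX-5461 libraries, against 67.6 and 72.0 TPM in DMSO libraries, and passed narrowly (limma, adjusted p = 0.0473). Tfam, the HMG-box protein of mitochondrial DNA, overlapped between groups, at 21.3 and 22.02 TPM in CX-5461 libraries and 24.3 and 20.01 TPM in DMSO libraries. With CX-5461 replicate 2 or CX-5461 replicate 3 left out, 1 of these 24 genes passed, Wdhd1, and with DMSO replicate 2 or DMSO replicate 3 left out 3 passed, all lower.

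Linker histones, with which HMGN proteins compete, had a positive median difference, 1.12: of 8 genes 4 were higher, 1 lower and 3 did not pass. H1f2 was at 794 and 792 TPM in CX-5461 libraries, against 284 and 223 TPM in DMSO libraries, a difference of 1.65 (limma, adjusted p = 0.00144). H1f4 and H1f3 were also higher, by 1.93 and 2.00 (limma, adjusted p = 0.000822 and 0.00316). H1f10, whose transcripts are polyadenylated, fell by 1.74 (limma, adjusted p = 0.00162). The 3 that did not pass were H1f0, Hp1bp3 and H1f5, at 0.12, 0.02 and 0.94 (limma, adjusted p = 0.348, 0.874 and 0.102). H1f0 was at 172 and 162 TPM in CX-5461 libraries, against 157 and 150 TPM in DMSO libraries. Most transcripts of H1f2, H1f3 and H1f4 lack a poly(A) tail, and the libraries were made by poly(T) capture, so their values cover the tailed fraction. With CX-5461 replicate 2 or CX-5461 replicate 3 left out, 3 linker histones were higher and 1 lower.

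Of 26 other abundant chromatin and lamina genes, 15 were lower, 1 was higher and 10 did not pass, with a median of -0.48. Lmnb1, encoding lamin B1, fell by 2.85, Dek, a DNA-bending chromatin protein, by 1.39, Cbx5, encoding HP1 alpha, by 0.93 and Anp32b, a histone-binding protein, by 0.85 (limma, adjusted p = 0.000262, 0.000959, 0.00274 and 0.00321). Without CX-5461 replicate 2 the median of this list was -0.46, and without CX-5461 replicate 3 it was -0.49. In both fits fewer genes of the list, and fewer of all genes tested, passed as lower. The HIRA complex and macroH2A are chromatin components linked to senescence. In their list 1 of 7 genes was lower, beside 8.21% of all genes tested, and 6 did not pass. The lower gene was Macroh2a2, at 28.3 and 25.1 TPM in CX-5461 libraries against 48.3 and 46.7 TPM in DMSO libraries. Without CX-5461 replicate 3 none of these 7 passed.

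The remaining lists follow Hmga2 and Hmgb1 into their known circuits. In the list of let-7, LIN28 and IGF2BP genes, which are tied to Hmga2 through let-7 and through mRNA binding, 10 of 13 could be tested, and 3 were lower, 1 higher and 6 did not pass, with a median of -0.14. Igf2bp2, an mRNA-binding protein known as an HMGA2 target, was at 42.0 and 40.9 TPM in CX-5461 libraries, against 63.1 and 68.1 TPM in DMSO libraries. Igf2bp3 fell by 0.52 and Igf2bp1 by 0.46 (limma, adjusted p = 0.0147 and 0.033), while Lin28a and Lin28b were below the level tested. Of 14 genes for receptors of HMGB1 and its release, 12 could be tested, with a median of 0.11. Of these 2 were higher, 1 lower and 9 did not pass, beside 11.6% higher and 8.21% lower among all genes tested. Sdc1, a heparan sulfate proteoglycan, and Myd88, an adaptor of Toll-like receptors, were higher by 0.80 and 0.46 (limma, adjusted p = 0.0205 and 0.0244), and Xpo1, the nuclear exporter, fell by 0.55 (limma, adjusted p = 0.0125). Without CX-5461 replicate 2 or without CX-5461 replicate 3 no gene of these 2 lists passed.

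**Figure D5:**
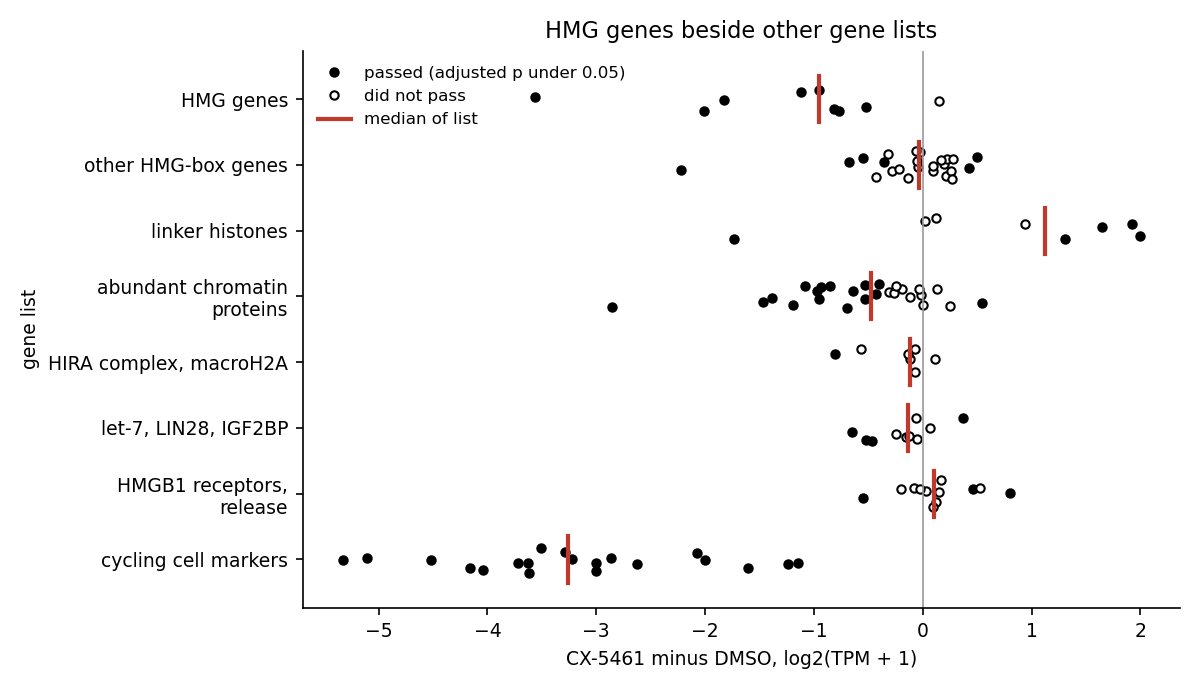
Difference of each tested gene of 8 lists, CX-5461 minus DMSO in log2(TPM + 1), with filled points for genes that passed, open points for those that did not and a red bar at the median of the list. The HMG genes have a median of -0.96, the linker histones of 1.12, the other HMG-box genes of -0.03 and the cycling cell markers of -3.26.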

How the data were processed

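Poly(T)-captured RNA of 4 libraries was sequenced as paired-end reads of 150 bases and the reads were cleaned on BMKCloud, per the labels. The authors deposited TPM values; build mm10 is named in the submitters' processing notes, with aligner, counter, annotation and strand setting not given in the sources used here. TPM is relative to all other transcripts of a library. Groups and replicate numbers came from sample titles, and 0 columns were left unused.

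The members and gene lists were chosen with earlier results of these data known. Genes whose mean reached 1 TPM entered a limma fit (version 3.58.1, R 4.3.3) of log2(TPM + 1), using lmFit and then eBayes with its trend and robust options and no covariate (2 residual and 3.75 prior degrees of freedom), with Benjamini-Hochberg adjustment over the 14621 genes fitted. An adjusted p under 0.05 counted as passing. A fold change on this scale understates the change of low genes. The procedure was tested on simulated data, in which all genes shared the same relative spread beyond counting noise. There it made more false calls than the threshold promises, so calls near the threshold are less certain than their adjusted p. The rate of false calls in the data themselves was not measured. Named genes were the 9 members, Ubtf, Ssrp1 and Tfam, up to 4 genes per list with the smallest adjusted p among those that passed (2 where none passed), and the 4 genes nearest in profile to each of 2 members.

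Gene coordinates came from GENCODE M21 (mm10), where 30022 symbols matched, 452 of them through another name, and promoters from RefSeq (GRCm38.p6). Copies were sought with blastn 2.17.0+, and a copy counted as having a row only where the symbol of a row matched it in GENCODE. Reads were recovered from TPM and exon lengths: 69.4% of 71192 values were whole to within 0.01, where chance gives 2%, so they are estimates. Replicates differed by more than counting noise (chi-square per degree of freedom 7.80 for the CX-5461 pair and 15.4 for the DMSO pair). Python 3.11.15 with numpy 2.4.6, pandas 2.3.3 and matplotlib 3.10.9 was used for the rest.

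Alternatives were pseudocounts of 0.1 and 5, quantile normalization, scaling by median of ratios, rescaling after removal of the mitochondrially encoded and the 20 highest genes, a filter of 5 TPM or none, limma with neither trend nor robust option, a replicate block, and each library left out, in which case the remaining library is taken to vary as much as the other group does. Added after the data were seen were limma's voom on recovered reads, members summed with their copies, and the counts of each list under all these settings.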

Additional observations from a re-analysis of the deposited data

How the results depend on the processing

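Of 135 values for the 9 HMG genes under 15 other settings, 126 kept their direction and their side of the threshold, 9 no longer passed and 0 reversed. Hmgb1, Hmgb2, Hmgb3, Hmgn2 and Hmgn5 passed under all 15, and Hmgn1, between 0.02 and 0.22, under none. With each library left out, the differences ran from -0.89 to -0.66 for Hmga1, from -0.67 to -0.38 for Hmga2, from -0.99 to -0.93 for Hmgb1, from -3.75 to -3.38 for Hmgb2, from -2.13 to -1.89 for Hmgb3, from 0.08 to 0.22 for Hmgn1, from -1.94 to -1.72 for Hmgn2, from -0.92 to -0.71 for Hmgn3 and from -1.25 to -0.99 for Hmgn5. Hmga2, at -0.52, also did not pass with no filter (limma, adjusted p = 0.072) and without trend and robust (limma, adjusted p = 0.0785). The number of HMG genes passing as lower was 5 to 8 with a library left out and 7 or 8 otherwise, and 0 passed as higher under any setting. The size for Hmgb2 was -2.62 with a pseudocount of 5 and -4.05 with voom on recovered reads.

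Over all genes, 1694 were higher and 1201 lower. With a library left out 237 to 2047 were higher and 364 to 891 lower; 1051 were higher with no filter and 1128 without trend and robust, and 2208 were lower with voom. The excess of higher genes was not seen with either CX-5461 library left out. Nor was it seen with median-of-ratios scaling (1652 higher, 1655 lower), quantile normalization (1638 and 1646) or rescaling without the highest genes (1572 and 1766). Under each of these 3 settings 2 genes of the HIRA and macroH2A list were lower instead of 1, and 0 instead of 1 were higher in the lists of let-7, LIN28 and IGF2BP genes and of abundant chromatin genes. With no filter, and without trend and robust, 0 instead of 2 genes were higher among other HMG-box genes and among HMGB1 receptor genes. As log2 ratios of summed TPM, the HMGA sum, -0.70, ran from -0.82 to -0.57 with a library left out. The HMGB sum, -1.65, was -1.72 with median-of-ratios scaling, -1.74 rescaled without the highest genes and -1.68 to -1.63 with a library left out. The HMGN sum, -0.17, was -0.25 rescaled and -0.24 to -0.10 with a library left out. All 9 together, -0.55, gave -0.62 and -0.64 under the 2 scalings and -0.59 to -0.52 with a library left out. Tfam, at -0.03, ran from -0.16 to 0.11 with a library left out and reversed without DMSO replicate 2, and Fut4, a pluripotency marker, reversed to 0.13 without CX-5461 replicate 2 and to 0.04 without DMSO replicate 2. The cause of these changes was not tested.

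With the replicate number as a block, 1589 genes were higher and 1100 lower, 8 HMG genes passed as lower, and Ubtf, Tut7 and Tek no longer passed (limma, adjusted p = 0.0645, 0.0785 and 0.0533). Whether same-numbered libraries shared more than a number is not known here. Their deviations from the group means had a correlation of 0.0307, which cannot decide this because each group holds 2 libraries.

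Depth limits Hmgb2 most, with 67.5 and 94.7 recovered reads in CX-5461 libraries. The 2 libraries per group leave 2 residual degrees of freedom per gene, so the tests borrow spread from all genes, and the call of Hmga2 is the one nearest the threshold among the HMG genes that passed.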

Other observations

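Of all genes tested, 10693 had a promoter window in RefSeq's table, and 8.20% of these passed as lower in CX-5461 cells. The share was 15.8% among the 787 genes with both a CHR match and an NF-Y box, the combination found at Hmgb2 and Hmgb3. It was 12.8% among those with a CHR match, 9.87% with an NF-Y box and 13.3% with an E2F match. As higher, 12.2% of all genes with a window passed, and in the same order 11.1%, 11.6%, 11.7% and 11.3%. A gene with several windows counted as having both motifs even where different windows held them. These shares are descriptions of overlapping groups and were not tested.

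The counts of markers that follow stand beside 8.21% lower and 11.6% higher among all genes tested. The endothelial markers, of which 2 of 6 were tested, split. Kdr, a receptor of vascular endothelial growth factor, was at 23.8 and 24.1 TPM in CX-5461 libraries, against 6.16 and 6.42 TPM in DMSO libraries. Tek, the angiopoietin receptor, was at 33.9 and 32.6 TPM in CX-5461 libraries, against 44.3 and 43.7 TPM in DMSO libraries. Kdr passed whichever library was left out, whereas Tek no longer passed when any 1 library was left out (limma, adjusted p from 0.0567 to 0.221). Of 4 keratinocyte markers tested 1 was higher, Sfn, at 74.8 and 69.3 TPM in CX-5461 libraries, against 51.1 and 53.3 TPM in DMSO libraries, and it did not pass without CX-5461 replicate 2 or without CX-5461 replicate 3 (limma, adjusted p = 0.168 and 0.131). Krt14, named after its values were seen, was at 10.8 and 18.5 TPM in CX-5461 libraries, against 26.4 and 26.9 TPM in DMSO libraries (difference -0.87, limma, adjusted p = 0.0641), and 1 keratinocyte marker passed as lower with the filter of 5 TPM, under each of the 3 scalings, with the replicate block, with voom and without CX-5461 replicate 3. Of 6 macrophage markers tested 3 were higher, among them Lyz2, at 775 and 855 TPM in CX-5461 libraries, against 528 and 508 TPM in DMSO libraries, but 0 passed without CX-5461 replicate 2 or without CX-5461 replicate 3, where the adjusted p of Lyz2 in limma was 0.0698 and 0.118, and 2 passed without DMSO replicate 3. Of 12 fibroblast markers 6 were lower, among them Lum, a collagen-binding proteoglycan, at 75.7 and 75.6 TPM in CX-5461 libraries, against 154 and 157 TPM in DMSO libraries. Without CX-5461 replicate 2 the median difference of the fibroblast markers was -0.44, and without CX-5461 replicate 3 it was -0.41. In both fits fewer of these markers, and fewer of all genes tested, passed as lower. With median-of-ratios scaling or voom the number of lower fibroblast markers was 9. In the voom fit 15.4% of genes passed as lower. Lum passed with any library left out.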
